A study of Mus musculus with 14 samples.

Results

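The genes described here encode the constitutive proteasome, the protease that degrades proteins marked with ubiquitin, together with its activators, its inhibitor and its assembly chaperones. They were chosen by gene symbol and by their counts: every row of the count table whose symbol begins with Psm, followed by a letter from a to g and a number, and that reached at least 10 counts in at least 2 libraries. The 3 catalytic genes of the immunoproteasome, Psmb8, Psmb9 and Psmb10, were left out by rule. Of 48 matching symbols, 44 genes were members, out of 24421 rows of the table. The count threshold fell between Psma8, the testis form of an alpha subunit, with 0 to 10 counts per library and exactly 2 libraries at the threshold, and Psmb11, the thymus form of a catalytic subunit, with at most 1 count. The next member above Psma8, Psmg4, had 145 to 423 counts. Psma8 was too low to be tested, which left 43 tested members of 14854 tested genes. The count filter used levels and not a difference between groups, but the members were proposed with earlier results of these libraries known.

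The study measured messenger RNA in the whole kidney, from male mice of the C57BL/6J strain. Control mice received vehicle, with no time point in the labels (3 libraries). The other mice received an intravenous injection of a protein nanocage called Dps or of one called MnDps, each at 18 mg/kg, and their kidneys were taken after 4 h (3 libraries for each protein) or 24 h (3 libraries for Dps, 2 for MnDps). The labels do not say what MnDps carries or how it was made, and they give no age, so the comparisons below are between these preparations as named. Nothing in the labels says whether the libraries of a group came from separate mice. A p-value here thus sets a difference between groups only against the spread between these libraries.

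Proteins tagged with ubiquitin are bound and unfolded by the regulatory particle of the proteasome and threaded into a barrel of stacked rings, in which 3 kinds of catalytic beta subunit cut the chain. Interferon leads cells to make alternative catalytic subunits and a ring-shaped activator built from the products of Psme1 and Psme2, which changes the peptides that are cut for display on class I molecules. The proximal tubule takes up filtered protein by endocytosis and breaks most of it down in lysosomes, a route separate from the proteasome.

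Total counts ran from 15097093 to 42074942 per library, and 3 libraries (replicates 1 and 2 of Dps at 4 h and control replicate 3) exceeded 30000000. The share of counts that fell on the members ran from 0.422% to 0.614%. Levels are given as CPM, counts scaled to a common library size. The 10 proximal tubule markers, for the site of uptake that the study's title names, were abundant in every library. They summed to 16350 to 17240 CPM in controls. After Dps and MnDps at 4 h the sums were 14290 to 14880 CPM and 13320 to 13960 CPM. At 24 h they were 15410 to 17220 CPM after Dps and 13730 and 15930 CPM after MnDps. With MnDps at 4 h, 7 of these markers were called lower (background: 22.7%), and 6 without replicate 3 of that group (background: 18.6%). These marker counts carry no correction for transcript length. Of 6 endothelial markers, 4 were lower with each protein at 4 h (Kdr, Tek, Plvap and Emcn, backgrounds: 6.27% with Dps and 22.7% with MnDps). With Dps 1 was higher (Cdh5, 0.74, background: 8.33%). The endothelial markers summed to 317 to 362 CPM in controls. At 4 h their sums were 194.8 to 261.5 CPM after Dps and 192.4 to 245 CPM after MnDps. At 24 h these were 370.3 to 438.2 CPM after Dps and 421.8 and 475.5 CPM after MnDps, above every control. Replicate 3 of MnDps at 4 h stood apart from its group: the median level of the 41 members other than Psme1 and Psme2, relative to the control mean, was 0.51 there on the log2 scale, against 0.22 and 0.34 in the other libraries of the group. The main totals of called members, and the counts by role, medians by role and ratios that rest on that group, are given with and without that library. Counts of the other cell type markers, of short genes and under the offsets for length and GC content described further on are given only with it.

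Promoters from RefSeq (GRCm38.p6) are printed here for Psme1 and Psme2, the members with the largest rise at 4 h, for Psmg4, the constitutive gene with the largest rise after MnDps, and for Psma5, the other member called higher with both proteins at 4 h. Each runs from 250 bases before the annotated start to 30 bases after it, on the gene's strand. Capitals mark matches, on either strand, to the core of the interferon-stimulated response element, the site bound by interferon-activated factors. Psme1 lies at chr14:55578123-55581529 on the plus strand, and Psme2 at chr14:55587441-55591113 on the minus strand (gene bounds from GENCODE on GRCm38). The printed windows follow the RefSeq start and are chr14:55578244-55578523 for Psme1, chr14:55590992-55591271 for the first of the Psme2 entries, chr13:34162714-34162993 for Psmg4 and chr3:108256676-108256955 for Psma5.
Psme1: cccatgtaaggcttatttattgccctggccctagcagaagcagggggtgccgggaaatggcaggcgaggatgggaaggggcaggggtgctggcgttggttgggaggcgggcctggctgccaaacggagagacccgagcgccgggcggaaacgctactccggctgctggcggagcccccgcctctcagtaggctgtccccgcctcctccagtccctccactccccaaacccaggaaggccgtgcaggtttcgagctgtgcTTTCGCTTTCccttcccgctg
Psme2: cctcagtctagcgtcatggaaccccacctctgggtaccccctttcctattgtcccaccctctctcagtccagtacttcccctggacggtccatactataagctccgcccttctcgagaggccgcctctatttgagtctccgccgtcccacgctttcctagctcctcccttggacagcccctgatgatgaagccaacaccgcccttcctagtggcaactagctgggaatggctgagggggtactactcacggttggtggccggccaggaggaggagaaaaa
Psmg4: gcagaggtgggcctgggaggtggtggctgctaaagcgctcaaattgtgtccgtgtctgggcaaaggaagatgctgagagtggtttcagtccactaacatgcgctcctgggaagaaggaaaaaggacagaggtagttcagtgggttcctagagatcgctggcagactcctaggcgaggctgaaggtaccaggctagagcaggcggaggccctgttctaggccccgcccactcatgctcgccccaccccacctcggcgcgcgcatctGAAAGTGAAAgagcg
Psma5: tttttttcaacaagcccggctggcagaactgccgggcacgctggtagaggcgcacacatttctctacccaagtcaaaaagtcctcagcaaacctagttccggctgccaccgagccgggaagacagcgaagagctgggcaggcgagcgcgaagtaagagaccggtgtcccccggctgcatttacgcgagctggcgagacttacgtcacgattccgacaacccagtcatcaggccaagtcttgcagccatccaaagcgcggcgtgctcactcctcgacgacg
In Psme1 the match begins at base 260 of the window, after the annotated start, and in Psmg4 at base 266. The printed Psme2 and Psma5 windows hold no match to these letters, which says nothing of elements elsewhere. Of 36 members with a RefSeq promoter, 5 held this motif in the whole window of 300 bases (13.9%: Psmb3, Psmd4, Psmd9, Psme1 and Psmg4), against 3.99% of 27025 genes. The motif TTCNNNGAA was in 2 members (5.56%, against 9.55% of genes), TGACNNNGC in 6 (16.7%, against 14%), CCAAT in 12 (33.3%, against 41.1%) and TGACGTCA in 0 of 36 (2.03% of genes). Searches covered both strands, and none of these matches was tested as a site.

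The activator genes Psme1 and Psme2 rose in all 4 treated groups, and most at 4 h. Psme1 encodes the alpha and Psme2 the beta subunit of the interferon-induced cap that opens the core without using ATP. Psme1 was at 61.1, 60.9 and 49.3 CPM in the 3 control libraries. It was at 118, 136 and 120 CPM after Dps at 4 h, and at 163, 163 and 236 CPM after MnDps at 4 h. At 24 h it was at 80.7, 93.7 and 76.6 CPM after Dps and at 99.2 and 88.1 CPM after MnDps. Every treated library was thus above every control, and every 4 h library above every 24 h library. The log2 fold changes against control were 1.13 ± 0.14 (SE) with Dps at 4 h (adjusted p = 2.86e-05, edgeR), 1.72 ± 0.14 with MnDps at 4 h (adjusted p = 2.98e-07), 0.56 ± 0.14 with Dps at 24 h (adjusted p = 0.0127) and 0.72 ± 0.15 with MnDps at 24 h (adjusted p = 0.00832).

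Psme2 followed the same order, with log2 fold changes above those of Psme1 at 4 h. Its levels were 56.3, 59.4 and 42.4 CPM in controls. They were 130, 149 and 129 CPM after Dps at 4 h and 203, 186 and 310 CPM after MnDps at 4 h. At 24 h they were 80.2, 81.0 and 70.3 CPM after Dps and 94.6 and 76.6 CPM after MnDps. No treated library overlapped the controls. The log2 fold changes against control were 1.37 ± 0.18 with Dps at 4 h (adjusted p = 0.000135, edgeR), 2.15 ± 0.18 with MnDps at 4 h (adjusted p = 1.94e-06), 0.56 ± 0.18 with Dps at 24 h (adjusted p = 0.0443) and 0.70 ± 0.20 with MnDps at 24 h (adjusted p = 0.034). Without replicate 3 of MnDps at 4 h, the log2 fold changes of that group were 1.51 for Psme1 and 1.89 for Psme2, both called.

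The calls at 24 h depended on single libraries. Leaving out control replicate 3, the lowest control for both genes, gave log2 fold changes with Dps at 24 h of 0.46 for Psme1 (adjusted p = 0.0773, edgeR) and 0.41 for Psme2 (adjusted p = 0.177). The call of Psme1 with Dps at 24 h was also lost without replicate 2 of that group (0.45, adjusted p = 0.0729), and its call with MnDps at 24 h without replicate 1 of that group (0.63, adjusted p = 0.0969). For Psme2, the call with Dps at 24 h was lost on leaving out any of 9 libraries, each library of that group among them, and the call with MnDps on leaving out either library of that group or control replicate 1 or 3. Psme2 has a near-identical copy, Psme2b, on which the handling of shared reads bears. Psme2b was counted at 1.81 to 2.18 CPM in controls and changed by 1.68 with Dps and 2.10 with MnDps at 4 h on the log2 scale. Psme1 overlaps Emc9 on the other strand, and Psma2, Psma3, Psma4, Psma5, Psma6, Psmb5, Psmb7, Psmc3, Psmc5, Psmd1, Psmd12, Psmd13, Psmd14, Psmd3, Psmd5, Psmd9, Psme4 and Psmg3 overlap other annotated genes. The sources used here do not give the strand setting of the counting, so some uncertainty attaches to these values.

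**Figure D1:**
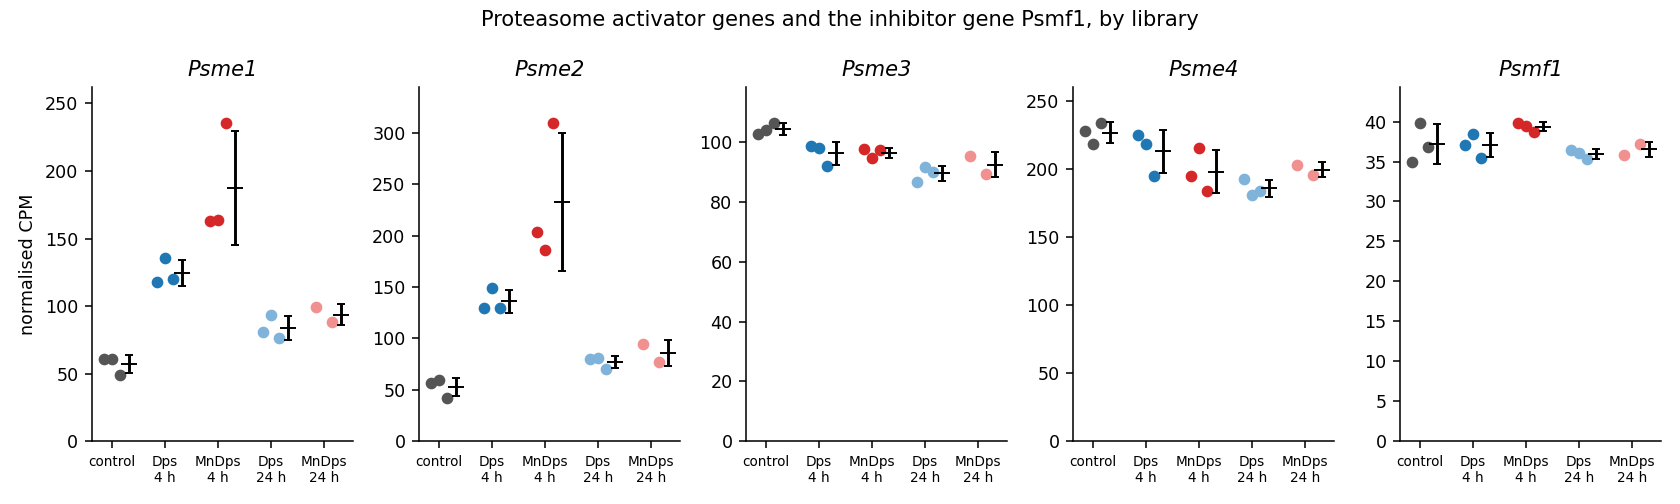
Normalised CPM of the 4 activator genes and the inhibitor gene in each library (points; mean and SD beside them), by group, on axes that start at 0. Psme1 and Psme2 are above all controls in every treated library, with the highest values, 236 and 310 CPM, in replicate 3 of MnDps at 4 h, while Psme3 lies below all controls in every treated library and Psmf1 lies between 34.9 and 39.9 CPM throughout.

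Neither of the other activator genes, nor the inhibitor gene, was called higher in any group without a correction for transcript length. Psme3, the nuclear relative of Psme1 and Psme2, was at 103, 104 and 107 CPM in controls, at 98.9, 98.1 and 92.0 CPM after Dps at 4 h, and at 97.8, 94.7 and 97.4 CPM after MnDps at 4 h. At 24 h it was at 86.8, 91.9 and 90.2 CPM after Dps and at 95.6 and 89.6 CPM after MnDps. It lay below the controls in every treated library, but only the fall with Dps at 24 h was called, at -0.22 ± 0.06 (adjusted p = 0.0235, edgeR). With the 2 offsets for length and GC content described further on, it was also called lower with MnDps at 4 h (-0.21 and -0.31) and at 24 h (-0.23 and -0.27). Psme4, a large single-chain activator, was at 228, 218 and 234 CPM in controls and at 193, 181 and 184 CPM after Dps at 24 h, a called change of -0.29 ± 0.08 (adjusted p = 0.0163) that was at 0.00 and 0.09 with the offsets. After MnDps at 4 h it was at 195, 215 and 184 CPM (-0.20 ± 0.08, adjusted p = 0.0453), with no overlap with the controls, a call that was lost on leaving out any of 8 libraries, replicates 1 and 3 of that group among them. Its other groups held 225, 219 and 195 CPM (Dps at 4 h) and 203 and 196 CPM (MnDps at 24 h), and neither comparison passed. Psmf1, which encodes an inhibitor of the core, lay between 34.9 and 39.9 CPM in all 14 libraries, and its 4 log2 fold changes against control ran from -0.05 to 0.08, none called by edgeR.

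Levels were also compared per length, as CPM per kilobase of the principal transcript. In controls, Psme1 (51.3 ± 6.1, SD, n = 3) and Psme2 (54.8 ± 9.4) did not differ beyond their spread, and both were above Psme3 (39.2 ± 0.74) and Psme4 (34.95 ± 1.23). The ratio of Psme1 to Psme3 per length was 1.11 to 1.42 in controls, 2.85 to 3.32 after Dps at 4 h, 3.98 to 5.80 after MnDps at 4 h, 2.03 to 2.44 after Dps at 24 h and 2.36 to 2.49 after MnDps at 24 h. This ratio and those that follow carry no correction for the trend over transcript length described further on. The principal transcript of Psme1 has 1112 bases and that of Psme3 2664. For the catalytic genes, the induced form was set against the constitutive one it replaces. Psmb8 against Psmb5 rose from 0.0689 to 0.119 in controls to 0.607 to 0.840 after Dps and 0.669 to 0.933 after MnDps at 4 h. Psmb10 against Psmb7 went from 0.0768 to 0.119 in controls to 0.665 to 0.850 and 0.702 to 1.06. Psmb9 against Psmb6 went from 0.0181 to 0.0326 to 0.236 to 0.284 and 0.210 to 0.260. At 24 h Psmb8 against Psmb5 was at 0.108 to 0.166 after Dps and at 0.196 and 0.274 after MnDps. Psmb10 against Psmb7 was then at 0.110 to 0.154 and at 0.186 and 0.197. Psmb9 against Psmb6 was at 0.0241 to 0.0290 and at 0.0314 and 0.0453. After Dps at 24 h all of these pairs overlapped the controls, and after MnDps only that of Psmb9 did. Without replicate 3 of MnDps at 4 h, the highest ratios of that group were 0.740, 0.826 and 0.232 for these pairs, and 4.13 for Psme1 to Psme3. The 3 induced catalytic genes themselves rose by 2.80 to 3.15 with Dps and 3.62 to 3.83 with MnDps at 4 h on the log2 scale (3.35 to 3.59 without that library). Whole kidney RNA does not tell more cells of a type from more RNA per cell. The 13 leukocyte markers summed to 123 to 170 CPM in controls, 139 to 146 CPM after Dps at 4 h and 123 to 138 CPM after MnDps at 4 h, so that the groups overlapped. The single markers did not move together. With Dps at 4 h 3 were higher (background: 8.33%) and 1 lower (background: 6.27%). With MnDps at 4 h 4 were higher (Itgam, S100a8, S100a9 and Coro1a, background: 22.9%) and 3 lower (Ptprc, Csf1r and Laptm5, background: 22.7%). At 24 h the sums were 181 to 215 CPM after Dps and 181 to 188 CPM after MnDps, and 7 and 5 of the 13 markers were higher (backgrounds: 9.64% and 4.93%). The neutrophil marker list summed to 0.573 to 1.32 CPM in controls, 4.88 to 7.15 CPM after Dps at 4 h and 10.3 to 18.1 CPM after MnDps at 4 h. Of its 6 genes 3 could be tested (S100a8, S100a9 and Csf3r), and all 3 rose in both groups at 4 h; S100a8 had 0 counts in 3 libraries, and S100a8 and S100a9 also stand in the leukocyte list. At 24 h the list summed to 1.39 to 2.63 CPM after Dps and 1.20 to 1.43 CPM after MnDps. The part of these cells in the rise of Psme1 and Psme2 was not tested.

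With Dps at 4 h, few other members were called. Of the 43 tested members 3 were called higher (background: 8.33% of all tested genes) and 3 lower (background: 6.27%), and the median log2 fold change was -0.12, against -0.02 over all tested genes. Besides Psme1 and Psme2, the called rise was that of Psma5, an alpha ring subunit, from 55.6, 60.7 and 57.8 CPM in controls to 72.5, 74.9 and 69.1 CPM (0.32 ± 0.09, adjusted p = 0.0199, edgeR). That call was lost without replicate 2 of Dps at 4 h, without control replicate 1 or 3, and with a term for deeply sequenced libraries. The falls were in Psmg1, an assembly chaperone, and in the regulatory particle genes Psmd3 and Psmd1. Psmg1 went from 28.4, 32.7 and 29.2 CPM to 21.3, 25.1 and 23.5 CPM (-0.37 ± 0.10, adjusted p = 0.0157). Psmd3 changed by -0.30 ± 0.07 (adjusted p = 0.0109) and Psmd1 by -0.24 ± 0.07 (adjusted p = 0.029). Leaving out replicate 1 or replicate 3 of Dps at 4 h ended all 3 calls of a fall, and 1 was left without control replicate 2. The log2 fold change was negative in 37 of 43 members, against 7930 of all 14854 tested genes, and 14 members had a negative change at an unadjusted p under 0.05 (background: 15.4%).

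With MnDps at 4 h, most proteasome genes were higher than in controls. Of 43 tested members 31 were called higher (background: 22.9%) and 2 lower (background: 22.7%), with a median log2 fold change of 0.36, against 0.00 over all tested genes. Without replicate 3 of that group, 27 were higher (background: 17.8%) and 1 lower (background: 18.6%), and the median was 0.29. The calls lost without it were the rises of Psma4, Psmc1, Psmc4 and Psmg1 and the fall of Psme4. In 30 of the 31 higher calls the libraries of the groups did not overlap (background: 21.3% of tested genes were called higher without overlap, which is 93.0% of those called higher).

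The rise after MnDps at 4 h ran through the core particle. In the alpha ring, whose subunits gate the entry of the barrel, all 7 tested genes were called higher, with a median of 0.50. With replicate 3 of that group left out, 6 of the 7 were, with a median of 0.36, and Psma4 went from 0.32 to 0.19 (adjusted p = 0.0661, edgeR). Psma5 was highest among them, at 95.7, 97.9 and 119 CPM (0.84 ± 0.09, adjusted p = 2.31e-06, edgeR). Psma7, Psma6, Psma3 and Psma2 rose by 0.62, 0.61, 0.50 and 0.48 on the log2 scale. In the beta ring 6 of 7 genes were higher, with a median of 0.48 (6 and 0.35 without that library). Psmb4, a structural subunit, rose from 168.6 ± 14.9 to 283.8 ± 44.1 CPM (SD, n = 3 each), a log2 fold change of 0.75 ± 0.10 (adjusted p = 3.8e-05). With the transcript length and GC offset described further on, Psma1, Psma4, Psma6, Psma7 and Psmb3 lost their calls. Over all alternatives to the reported fit, the lowest values of Psma1, Psma4 and Psmb3 were -0.05, -0.07 and -0.05.

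The 3 catalytic beta genes were all higher after MnDps at 4 h, and none of them was called after Dps at 4 h. Psmb5, whose product cuts after hydrophobic residues, was at 80.0, 107 and 88.7 CPM in controls, at 90.1, 91.7 and 90.5 CPM after Dps at 4 h and at 127, 138 and 152 CPM after MnDps at 4 h. Psmb6, whose product cuts after acidic residues, was at 124, 152 and 124 CPM in controls, at 112, 120 and 112 CPM after Dps and at 171, 172 and 215 CPM after MnDps at 4 h. Psmb7, whose product cuts after basic residues, was at 137, 153 and 134 CPM in controls, at 127, 132 and 127 CPM after Dps and at 175, 188 and 212 CPM after MnDps at 4 h. The MnDps libraries lay above all controls for each of the 3 genes, and control replicate 2 was the highest control for each. Their log2 fold changes with MnDps at 4 h were 0.60 ± 0.10, 0.48 ± 0.10 and 0.44 ± 0.08 (adjusted p = 0.000219, 0.00117 and 0.000653, edgeR). With replicate 3 of that group left out they were 0.52, 0.36 and 0.35, all called. With the transcript length and GC offset described further on they were 0.08, -0.06 and 0.03, none called. At 24 h, Psmb5 was at 136, 131 and 119 CPM after Dps and at 107 and 118 CPM after MnDps. Psmb6 was then at 187, 188 and 165 CPM and at 171 and 172 CPM, and Psmb7 at 190, 182 and 166 CPM and at 158 and 146 CPM.

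In the regulatory particle, calls went in both directions after MnDps at 4 h. Of the 6 ATPases, which unfold the substrate, 5 were higher (median 0.32), led by Psmc5 (0.46), Psmc3 (0.40) and Psmc2 (0.36). Psmc6, at 112, 117 and 116 CPM against 119, 118 and 124 CPM in controls, changed by -0.06 and was not called. Only 3 of the 6 were higher without replicate 3 of that group (median 0.23), as Psmc1 (0.19, adjusted p = 0.0564, edgeR) and Psmc4 (0.16, adjusted p = 0.207) lost their calls. Of the 14 Psmd genes, not all of which encode subunits of the finished particle, 7 were higher and 1 lower (median 0.25), as they were without that library (median 0.17). The ubiquitin receptor gene Psmd4 rose by 0.52, Psmd9, which helps to assemble the base, by 0.51 and Psmd7 by 0.43. Psmd1, the large scaffold subunit, was at 138, 154 and 154 CPM in controls and 122, 122 and 119 CPM after MnDps at 4 h, a called change of -0.30 ± 0.07 (adjusted p = 0.00263, edgeR).

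All 4 Psmg assembly chaperone genes were higher after MnDps at 4 h, with a median log2 fold change of 0.60. Their products pair up to build the alpha ring and leave the finished core. Psmg4 had the largest rise of the constitutive genes: it was at 8.24, 8.31 and 7.97 CPM in controls, at 8.55, 9.78 and 9.33 CPM after Dps at 4 h and at 14.3, 16.4 and 18.6 CPM after MnDps at 4 h (1.01 ± 0.12, adjusted p = 1.11e-05, edgeR). Psmg3 rose by 0.87 ± 0.13 (adjusted p = 0.000108), and Psmg1 and Psmg2 by 0.34 and 0.33. Leaving out replicate 3 of that group, 3 of the 4 were higher (median 0.52), and Psmg1 was at 0.23 (adjusted p = 0.0575, edgeR). Psmg1 and Psmg2 were not called under either offset for length and GC content described further on, with lowest values of -0.14 and -0.04. Psmg3 and Psmg4 kept their calls.

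**Figure D2:**
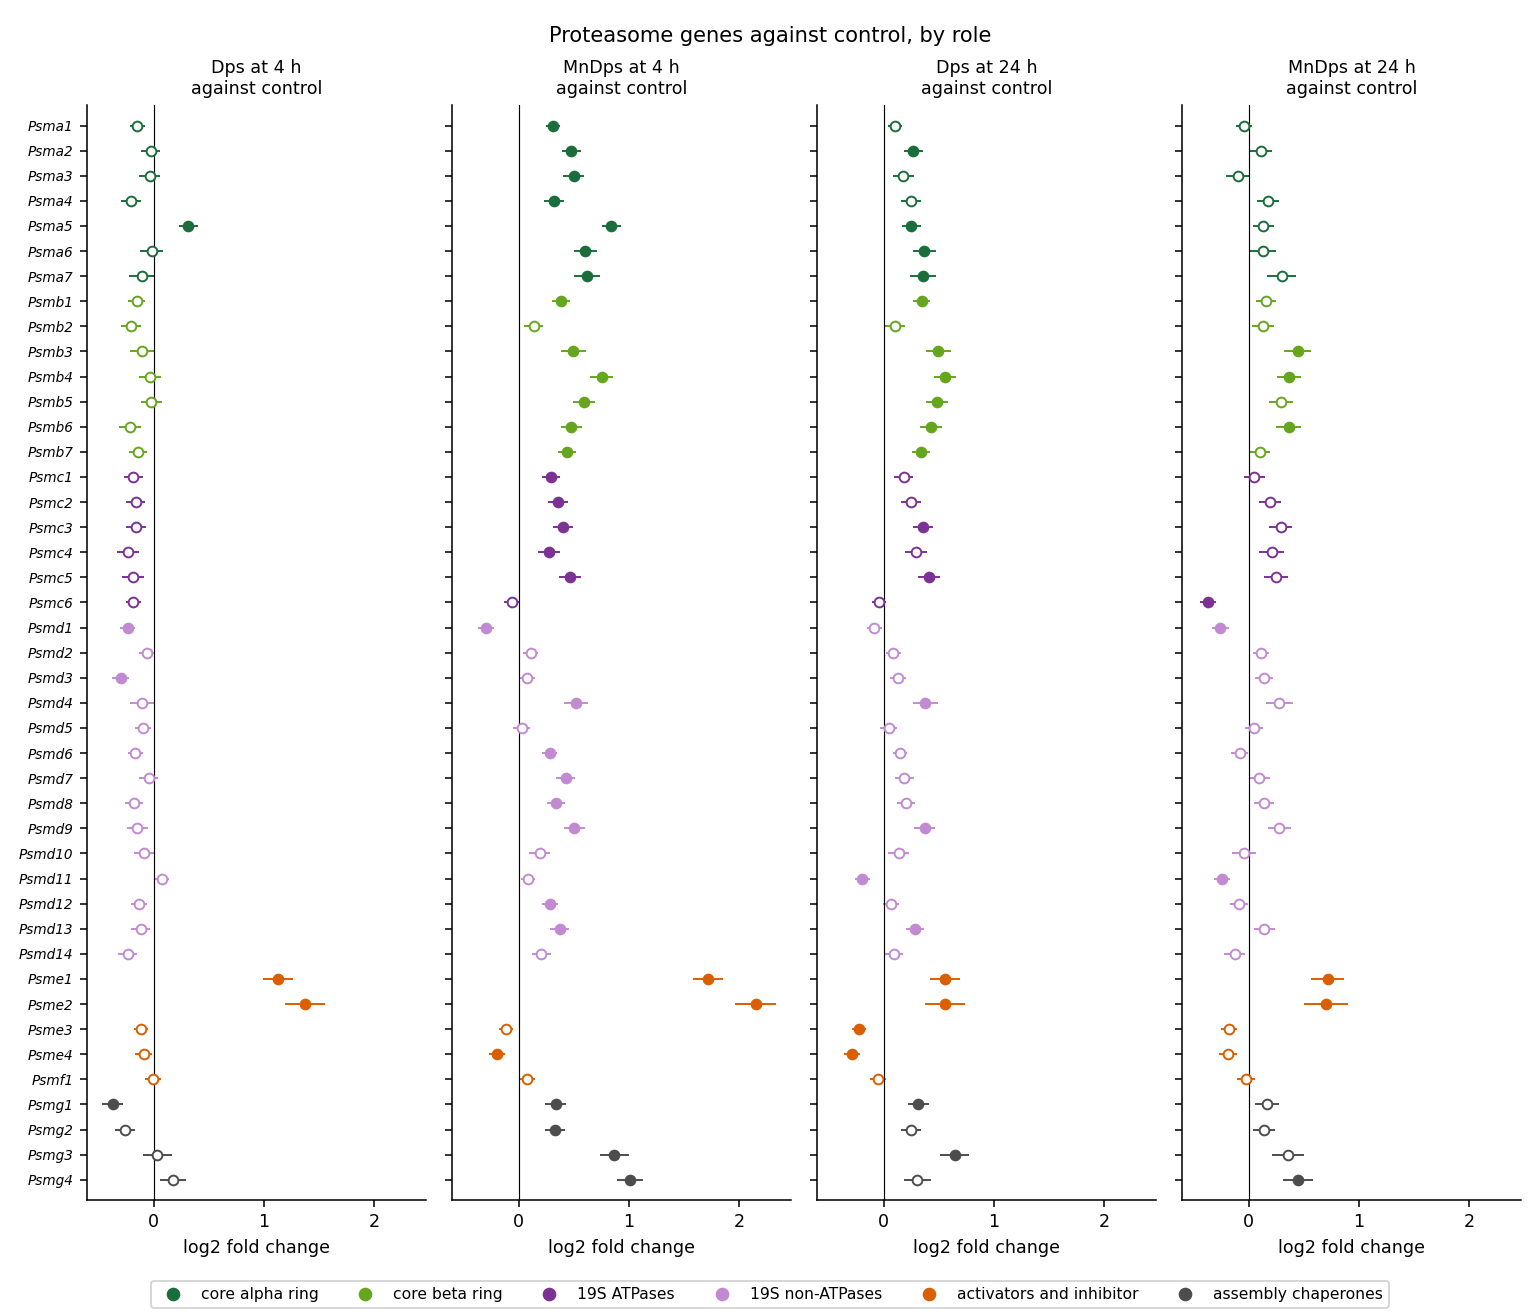
Log2 fold change (points) and SE (bars) of the 43 tested members against control in the 4 treated groups, coloured by role, with filled points for genes called by edgeR at an adjusted p under 0.05. Psme1 and Psme2 are the rightmost points at 4 h, and after MnDps at 4 h most core and chaperone genes lie right of 0.

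At 24 h, 19 members were higher than in controls with Dps and 6 with MnDps. With Dps, the 19 higher calls (background: 9.64%) stood beside 3 lower ones (background: 10.4%), with a median of 0.25, against 0.00 over all tested genes. The beta ring had 6 of 7 higher (median 0.43), the alpha ring 4 of 7 (0.25), the ATPases 2 of 6 (0.27) and the Psmd genes 3 of 14 (0.14). The largest rise was that of Psmg3, from 11.9, 13.5 and 10.8 CPM to 19.6, 19.8 and 16.8 CPM (0.65 ± 0.13, adjusted p = 0.00536, edgeR), followed by Psmb4 (0.56), then Psme1 and Psme2 (both 0.56), Psmb3 (0.50) and Psmb5 (0.49). The lower genes were Psme4, Psme3 and Psmd11 (-0.19 ± 0.06, adjusted p = 0.0472). These counts depended on single libraries. The higher count was 5 without control replicate 3, 6 and 8 without replicates 2 and 1 of Dps at 24 h, and 10 without control replicate 1. The lower count was 0 without control replicate 3 or replicate 2 of Dps at 24 h, and 1 without replicate 1 of that group.

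With MnDps at 24 h, in a group of 2 libraries, 6 members were higher (background: 4.93%) and 3 lower (background: 8.39%), with a median of 0.14, against 0.02 over all tested genes. After Psme1 and Psme2, the higher genes were Psmg4 (0.45), Psmb3 (0.44), Psmb4 (0.37) and Psmb6 (0.36). The largest fall was that of Psmc6, from 119, 118 and 124 CPM to 94.0 and 92.5 CPM (-0.37 ± 0.07, adjusted p = 0.00595, edgeR). Psmd1 (-0.26) and Psmd11 (-0.24) were lower as well. With the offsets, Psmc6 was at -0.01 and 0.08 and was not called. Leaving out replicate 1 or 2 of the group gave 0 and 1 higher calls and 0 lower ones. The higher count was also 1 and 2 without control replicates 3 and 1, and 3 without replicate 3 of Dps at 4 h or any library of Dps at 24 h. The lower count was 1 without replicate 1 of Dps at 4 h or control replicate 2 or 3.

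**Figure D3:**
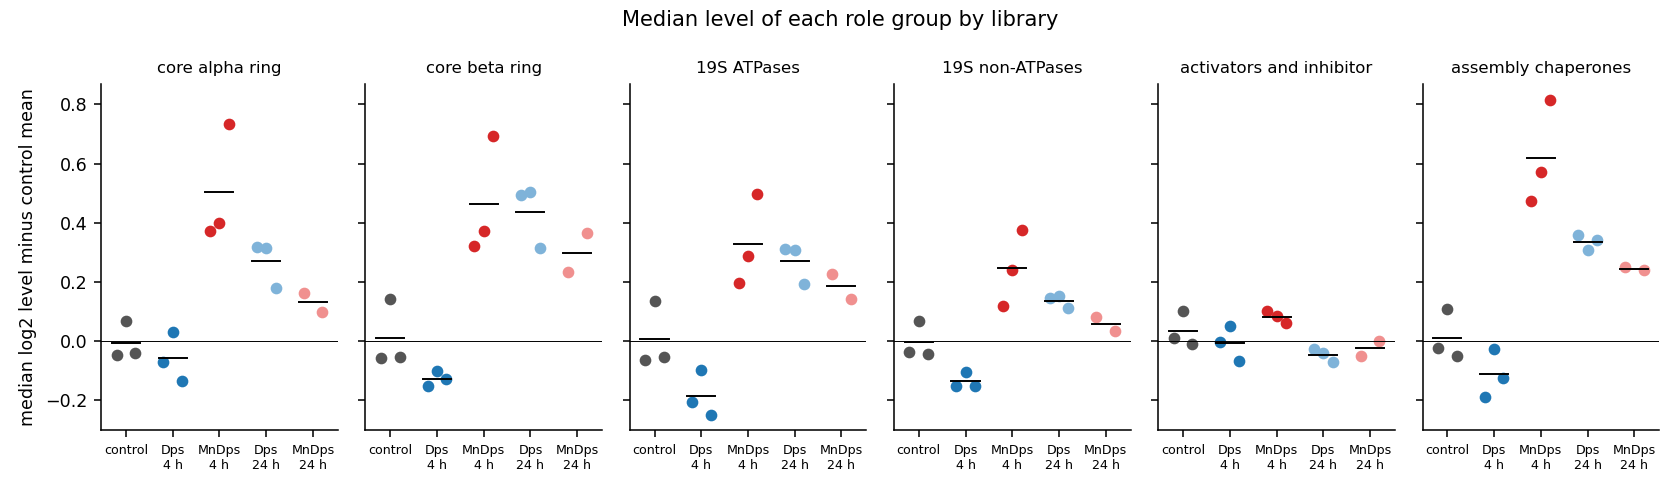
Median over each role group of the log2 level minus the control mean, one point per library, with the group mean as a line. After MnDps at 4 h the medians of the alpha ring run from 0.37 to 0.74, with replicate 3 highest, and those of the 5 activator and inhibitor genes from 0.06 to 0.10.

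Set against each other, the proteins differed at 4 h. There, 35 of 43 members were higher with MnDps than with Dps (background: 20.8%), with a median log2 fold change of 0.52, against -0.01 over all tested genes. Without replicate 3 of MnDps at 4 h the count was 33 (background: 14.6%) and the median 0.40, and the calls of Psmb2 and Psmd10 were lost. By edgeR 0 members were lower (background: 20.7%), also at an unadjusted p under 0.05 and by DESeq2. All 7 alpha ring genes, all 7 beta ring genes and all 4 Psmg genes were higher, as were 5 of 6 ATPases and 10 of 14 Psmd genes. Without that library 6 of the 7 beta ring genes and 9 of the 14 Psmd genes were higher. The largest difference was in Psmg3, at 18.1, 21.8 and 25.8 CPM with MnDps and 11.1, 12.9 and 12.9 CPM with Dps (0.83 ± 0.13, adjusted p = 0.000155, edgeR). Psmg4 (0.83), Psmb4 (0.79), Psme2 (0.78) and Psma7 (0.72) came next, and Psme1 differed by 0.59 ± 0.13. Psme3, Psme4 and Psmf1 differed by 0.00, -0.10 and 0.09, with SEs of 0.06 to 0.08, and were not called. With the offsets for length and GC content, Psme4 was higher with MnDps by 0.33 and 0.49, both called.

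At 24 h, 0 members were called by edgeR in either direction between MnDps and Dps (backgrounds: 0.148% higher and 0.666% lower), with a median of -0.10. At an unadjusted p under 0.05, 7 were lower (background: 8.98%) and 0 higher (background: 7.30%), and DESeq2 called 1 lower (background: 2.65%) and 0 higher (background: 1.11%). This comparison rests on 2 libraries against 3. Psme1 differed by 0.16 ± 0.15 and Psme2 by 0.15 ± 0.20.

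From 4 h to 24 h, most core genes rose after Dps, while a part of them fell after MnDps. After Dps, 29 members were higher at 24 h than at 4 h (background: 22.0%) and 4 lower (background: 22.6%), with a median of 0.37. Psmg1 (0.68), Psmb6 (0.65), Psmg3 (0.61) and Psmc5 (0.61) rose most. The 4 falls were Psme2 (-0.82), Psme1 (-0.57), Psmd11 (-0.26) and Psme4 (-0.20), of which the last turned to 0.17 and 0.29 with the offsets for length and GC content. After MnDps, 17 members were lower at 24 h (background: 11.7%) and 0 higher by edgeR (background: 10.1%; also 0 at an unadjusted p under 0.05 and by DESeq2), with a median of -0.23. Psme2 (-1.45), Psme1 (-1.0), Psma5 (-0.71) and Psma3 (-0.60) fell most. The lower count was 6 and 11 without replicates 2 and 1 of MnDps at 24 h, and 13 without replicate 3 of MnDps at 4 h (background: 10.7%). The difference between these courses, tested as an interaction of protein and time, was called in 33 members, all with a lower value for MnDps (background: 15.7%), with a median of -0.63, against 0.02 over all tested genes. Without replicate 3 of MnDps at 4 h it was called in 32 (background: 13.7%), with a median of -0.52. For Psme1 (-0.43) and Psme2 (-0.63) this interaction was not called, so their fall from 4 h to 24 h was not shown to differ between the proteins.

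Transcript length moved with these results. The proteasome genes are short: 31 of the 43 tested members have a longest coding transcript under 2000 bases, as do 3911 of 14760 tested genes of known length. Over all those genes, the log2 fold change fell with length for MnDps against control at 4 h (Spearman's rho across genes -0.489, which are not independent replicates), for Dps at 24 h (-0.534) and for MnDps against Dps at 4 h (-0.66). For Dps at 4 h the relation was 0.188. All short genes together had a median of 0.303 with MnDps at 4 h, and the 31 short members 0.405. Of the short genes 45.4% were called higher, and of the short members 28 of 31. For MnDps against Dps at 4 h the medians were 0.378 and 0.567, and 51.3% of short genes were higher, as were 31 of 31 short members. With Dps at 24 h the medians were 0.236 and 0.304, with 24.6% of short genes and 17 of 31 short members higher.

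**Figure D4:**
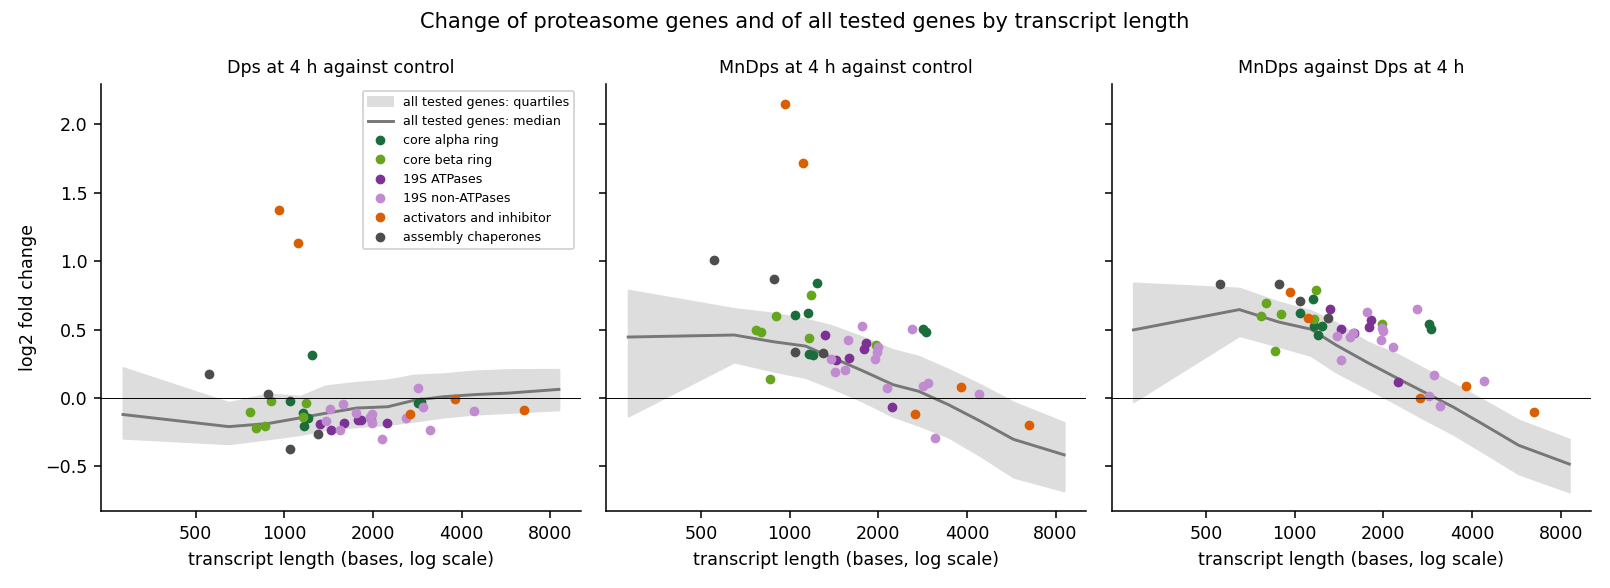
Log2 fold change of each tested member (points, by role) against the length of its longest coding transcript in bases (log scale), with the median (line) and quartiles (band) of all tested genes in bins of length, for Dps and MnDps at 4 h against control and against each other. The line falls with length in both comparisons that involve MnDps at 4 h, and Psme1 and Psme2 lie above the band in the comparisons against control.

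The comparisons were therefore repeated with each library's trend over transcript length and GC content as an offset, and once more with the coding length in place of the transcript length. The latter was added after the transcript models of Psma2 (2911 bases) and Psma3 (2846 bases) were seen to be far longer than those of the other alpha genes. With MnDps at 4 h, 10 members were then called higher with transcript length (background: 15.7%) and 26 with coding length (background: 16.9%), with medians of 0.08 and 0.24. The calls of a rise in Psma2, Psma3, Psma5, Psmb1, Psmb4, Psme1, Psme2, Psmg3 and Psmg4 were kept under both. For example, the log2 fold changes were 0.44 and 0.64 for Psma5, 0.45 and 0.53 for Psmg4, and 0.30 and 0.51 for Psmb4. By contrast Psmb6 was at -0.06 and 0.16 and was called under neither. Psmg1 and Psmg2 were also called under neither, with lowest values of -0.14 and -0.04. Psmb5 and Psmb7, at 0.08 and 0.03 with transcript length, kept their calls only with coding length. Psmd1 was at -0.32, still called, and -0.05, and Psme4 turned to 0.16 and 0.29, the latter called higher.

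**Figure D5:**
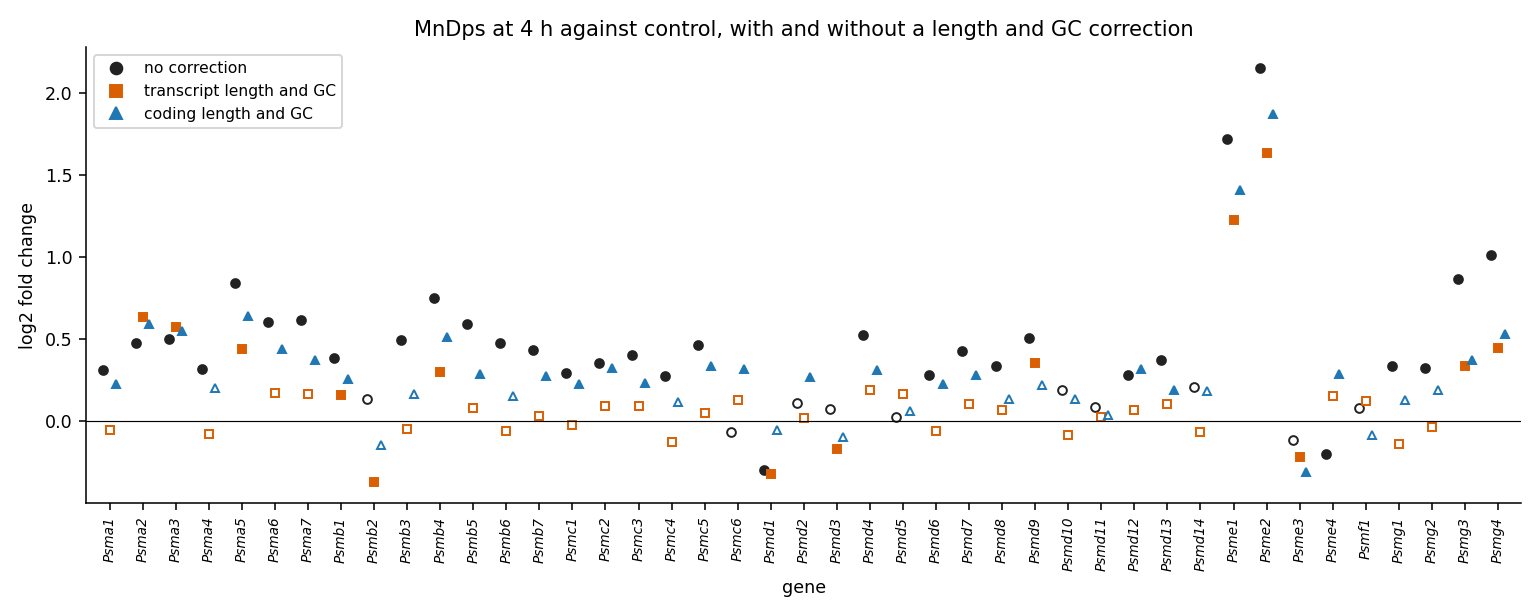
Log2 fold change of each tested member with MnDps at 4 h against control without a correction (circles), with the transcript length and GC offset (squares) and with the coding length and GC offset (triangles), filled where called. Psme1 and Psme2 stay above 1.2 in all 3, while most core and regulatory genes move toward 0.

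The corrections left Psme1 and Psme2 higher at 4 h. Psme1 was at 1.10 and 1.08 with Dps and at 1.23 and 1.41 with MnDps, and Psme2 at 1.36 and 1.33 and at 1.63 and 1.87, all called. At 24 h the call of Psme1 with MnDps was kept (0.42 and 0.50), while the calls of both genes with Dps (0.21 and 0.33 for Psme1, 0.22 and 0.37 for Psme2) and of Psme2 with MnDps were lost. The higher level of Psme1 with MnDps than with Dps at 4 h was 0.12 with transcript length (adjusted p = 0.354, edgeR) and 0.33 with coding length (adjusted p = 0.0257). For Psme2 these were 0.27 (adjusted p = 0.0916) and 0.53 (adjusted p = 0.0114).

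With Dps at 4 h the corrections moved members down: 19 were lower with transcript length (background: 17.6%) and 18 with coding length (background: 17.4%), Psmd1, Psmd3 and Psmg1 among them in both, while Psma5 stayed higher (0.30 and 0.29). With Dps at 24 h, 3 and 10 members were higher (backgrounds: 3.72% and 3.78%), of which Psmb1 and Psmb4 were also called without a correction and under both. With MnDps at 24 h it was 1 under each, Psme1 (backgrounds: 2.05% and 1.97%). For MnDps against Dps at 4 h, 26 and 38 members were higher (backgrounds: 13.2% and 17.8%), with medians of 0.22 and 0.45, and 21 of the 35 original calls were kept under both. The interaction was lower in 18 and 33 members (backgrounds: 10.2% and 13.4%), of which 17 and 30 were among the 33 called without a correction. The part of the length trend in the rise of the short proteasome genes was not tested beyond these offsets.

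Genes that work with the proteasome did not all follow it. Among 21 tested accessory and regulatory genes, 2 were higher (background: 22.9%) and 7 lower (background: 22.7%) with MnDps at 4 h (median -0.17). Without replicate 3 of that group 1 was higher (background: 17.8%) and 6 lower (background: 18.6%). These counts and this median carry no correction for transcript length. Pomp, which encodes a maturation factor of the core, rose by 0.84, close to the chaperone genes, and Ddi2, whose product activates the factor that drives proteasome genes, fell by 1.07 on the log2 scale. The gene of that factor, Nfe2l1, changed by 0.00 and was not called. With the offsets, Pomp (0.89 and 0.52) and Ddi2 (-0.65 and -1.14) kept their calls. Of 12 genes of class I peptide loading, 9 were higher with Dps (background: 8.33%) and 9 with MnDps (background: 22.9%) at 4 h, with medians of 1.23 and 1.61. Among them were the peptide transporter genes Tap1 (3.45 and 3.67) and Tap2 (2.51 and 2.89) and the loading bridge gene Tapbp (2.08 and 2.33). With MnDps at 4 h 1 of the 12 was lower (background: 22.7%). Leaving out replicate 3 of that group left 9 higher (median 1.345), and that fall was then not called. At 24 h, 4 of the 12 were higher with Dps (background: 9.64%), and 6 higher (background: 4.93%) and 1 lower (background: 8.39%) with MnDps.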

How the data were processed

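Whole-kidney RNA of 14 libraries in 5 groups was sequenced as stranded paired-end mRNA libraries, per the labels' protocols. The deposited values are raw counts of reads per gene symbol. They were made with STAR and featureCounts on mm10, per the submitters' processing notes. Versions, annotation, strand and multi-mapping settings were not given in the sources used here. Groups came from the labels' treatment and time, and no library was left out.

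filterByExpr, given the groups, kept 14854 of 24421 genes for testing. Library scaling used the trimmed mean of M-values, and CPM refers to the library size after that scaling. One edgeR (version 4.0.16, R 4.3.3) quasi-likelihood fit of 5 group means served all comparisons (9 residual degrees of freedom), with Benjamini-Hochberg adjustment over all tested genes and a call at an adjusted p under 0.05. The fit was run on simulated counts with known changes. For the calls these counts held no trend over transcript length, so they do not speak for calls that move with it. The precision follows the depth, 15097093 to 42074942 counts per library, and a biological coefficient of variation of 10.7%. No pair of replicates agreed within sampling noise.

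The alternatives tried were DESeq2's size factors in place of that scaling, testing without the filter, a stricter one (50 counts in 3 libraries), DESeq2 (version 1.42.0), only the groups compared, an offset of each library's spline trend (5 degrees of freedom) over length and GC content (known for 99.4% of tested genes, GENCODE), a term for libraries above 30000000 counts, leaving out each library in turn and, added after the data were seen, coding length. Values per library are given for the activators, the inhibitor, the catalytic beta genes and the largest called rise and fall without overlap in each comparison against control and between proteins, with further called members by size. Psma5, Psmg4 and the other genes set beside them fall under the last of these. The members, the lists and the naming rule were chosen with earlier results of these data known. Lists are described by counts and medians. A further list of related genes is not reported here.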

Additional observations from a re-analysis of the deposited data

Results flagged for a closer look

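The change from 4 h to 24 h differed between the proteins by a test of the difference itself, edgeR's interaction term, in 33 members, each lower for MnDps. It is the counterpart of 29 members higher and 4 lower at 24 h than at 4 h after Dps, and of 17 lower after MnDps. The members with the lowest interaction values were Psmg3 at -1.12 on the log2 scale, Psmb4 at -0.98, Psma6 at -0.86, Psmg1 at -0.85 and Psmc5 at -0.82. Psmg3 stood at 11.1 to 12.9 CPM after Dps at 4 h and at 16.8 to 19.8 CPM at 24 h, while after MnDps it stood at 18.1 to 25.8 CPM at 4 h and at 15.1 to 15.6 CPM at 24 h. With the coding length and GC offset 33 members had a lower interaction value past the threshold, 30 of them among the members called without it, and with the transcript length and GC offset 18, of which 17 were. The length trend over all genes of known length, with a Spearman's rho of 0.621 between the interaction and transcript length, moves with this pattern, and its part in it was not tested.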

How the results depend on the processing

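Alternatives to the reported fits were run for 17 counts of called members, 4 medians against control and 22 named changes. Of the counts, 313 values were within 1.5 times the reported one and 61 were not. With the length and GC offset the counts that moved were, for Dps at 4 h, 19 lower; for MnDps at 4 h, 10 higher and 4 lower; for Dps at 24 h, 3 higher; for MnDps at 24 h, 1 higher; for MnDps from 4 h to 24 h, 1 higher and 7 lower; and for the interaction 19 in either direction. The median moved to 0.08 for MnDps at 4 h, to 0.04 for Dps at 24 h, and for MnDps at 24 h to 0.0050. With coding length, added after the data were seen, they were 18 lower for Dps at 4 h, 1 lower for MnDps at 4 h (median 0.24), 10 higher and 1 lower for Dps at 24 h, 1 higher and 1 lower for MnDps at 24 h, and 1 lower for MnDps against Dps at 4 h. A term for deep libraries gave 1 lower for MnDps at 4 h, 12 higher and 0 lower for Dps at 24 h, and 1 higher and 1 lower for MnDps at 24 h. Fitting only the groups compared gave 1 lower for MnDps at 4 h, for MnDps at 24 h and for MnDps against Dps at 24 h, and 5 lower for MnDps from 4 h to 24 h. Without the count filter 1 was lower for MnDps at 4 h, and with the stricter filter or DESeq2 1 was lower for MnDps against Dps at 24 h. The cause was not tested.

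Leaving out each library in turn gave these ranges: 0 to 4 lower for Dps at 4 h, 1 to 2 lower for MnDps at 4 h, 5 to 24 higher and 0 to 3 lower for Dps at 24 h, 0 to 9 higher and 0 to 3 lower for MnDps at 24 h, 0 to 1 lower for MnDps against Dps at 24 h, and 6 to 21 lower for MnDps from 4 h to 24 h. Where a group was left with 1 library, that library was assumed to vary like the other groups. Of the 22 named changes, 410 values kept direction and call, 72 kept direction only and 2 reversed. The reversed ones were Psme4 with Dps at 24 h, 0.0929 with coding length, and Psmb6 with MnDps at 4 h, -0.0557 with transcript length. Called members outside those 22 changes reversed as well. With MnDps at 4 h, Psme4 reached 0.29, and the lowest values of Psmg1, Psmc4, Psma4 and Psmd6 were -0.14, -0.13, -0.07 and -0.06. Those of Psma1, Psmb3, Psmg2 and Psmc1 were -0.05, -0.05, -0.04 and -0.02. Psme1 and Psme2 kept their calls at 4 h against control under all 22 alternatives. The depth allowed every member but Psma8 to be tested. No paired analysis was run, as the labels name no link between libraries of different groups.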
